A study of Mus musculus with 5 samples.

Results

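The progression of a cell through G1 phase is driven by the D cyclins, which bind the kinases CDK4 and CDK6, and is held back by inhibitors of these kinases. The 10 genes described here encode the D cyclins (Ccnd1, Ccnd2 and Ccnd3), their kinases (Cdk4 and Cdk6), the CIP/KIP inhibitors (Cdkn1a, Cdkn1b and Cdkn1c) and inhibitors of the INK4 type (Cdkn2a and Cdkn2c). They were taken by symbol from the 21000 protein-coding genes with a curated RefSeq transcript. A DNaseI hypersensitive site (DHS) was assigned to a gene if it lay within 1 kb of any transcription start site (TSS) of that gene. It was also assigned if it lay inside the gene or up to 100 kb from its TSS and this was the nearest protein-coding gene. In this way 152 of the 135173 listed sites belonged to the 10 genes, and they fell into 71 of 68846 merged regions.

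DNaseI-seq marks chromatin that is open to digestion by the nuclease DNaseI. One line of mouse embryonic stem (ES) cells of strain 129 with a GFP reporter of Brachyury (Bry) was differentiated in vitro, and 5 populations were sorted. Cells with Bry:GFP were taken as mesoderm (MES) where Flk1 was absent (Flk1-) and as hemangioblasts (HB) where it was present (Flk1+). Hemogenic endothelium (HE) was Bry.GFP+ and positive for Tie2 and cKit but not CD41 (CD41-). CD41+ cells formed the hematopoietic progenitors (HP), and CD11b+ cells derived from them the macrophages (MAC). Each population gave 1 list of sites, and the label of the MAC list names 2 replicates, so no difference between stages could be set against a spread between replicates and no test was run.

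D cyclins carry growth factor signals to the cell cycle. With CDK4 or CDK6 they phosphorylate the retinoblastoma protein Rb, which frees E2F factors to activate the genes of S phase. INK4 proteins bind CDK4 and CDK6 and keep the cyclins off, whereas CIP/KIP proteins bind complexes of a cyclin and its kinase. In blood, Cdk6 and the D cyclins are known for their part in the expansion of progenitors, and Cdkn1c and Cdkn1a for their part in the quiescence of stem cells.

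The lists held 17734 (HP) to 37456 (MAC) sites, and the median width of a site ran from 600 bp (MAC) to 1200 bp (HE). Read counts are not part of the lists, so depth is unknown from these values and a gene with no site is one for which none was listed. Among the marker genes, the mesodermal gene T had its promoter listed in MES and HB, Tek and Cdh5 in HE, Itga2b (the gene of CD41) in HE and HP, and Itgam (the gene of CD11b), Csf1r and Adgre1 in MAC. Other markers were less specific. Kdr (the gene of Flk1), Runx1 and Cd68 were listed at all 5 stages, mesodermal Pdgfra at all but HP and Mixl1 in MES, HB and HE. Kit, the gene of the HE sorting marker cKit, was listed at all but MAC, Sox17 in HB, HE and HP, Tal1 at all but MES, and Gfi1b, a progenitor gene, in MAC. For other lineages, Pou5f1 was listed in MES, Nanog in MES, HB and HE, the cardiac gene Tnnt2 in HE and the erythroid gene Hba-a1 at no stage. What part such cells have in the sites described here was not tested.

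All 10 genes had a site within 1 kb of a TSS in MES and in HB, where 57.2% and 58.9% of all protein-coding genes had one. In HE 9 of the 10 genes had a promoter site against 61.7% of all genes, in HP 7 against 50.1%, and in MAC 7 against 50.2%. With sites narrower than the median of their list left out, these counts became 5 (MES), 9 (HB), 7 (HE), 6 (HP) and 5 (MAC). With each list cut to its widest sites at the length of the HP list they were 10 (MES), 10 (HB), 7 (HE), 7 (HP) and 5 (MAC). The shares of all protein-coding genes under these cuts were not computed, so the changes cannot be set against those over all genes. A promoter site at all 5 stages was listed for 6 of the 10 genes (Ccnd3, Cdk4, Cdkn1a, Cdkn1b, Cdkn2a and Cdkn2c), and for 43.4% of all protein-coding genes. The 4 others were Ccnd1, which lacked a site in HP, Ccnd2 and Cdk6, which lacked one in HP and MAC, and Cdkn1c, which lacked one in HE and MAC.

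**Figure D1:**
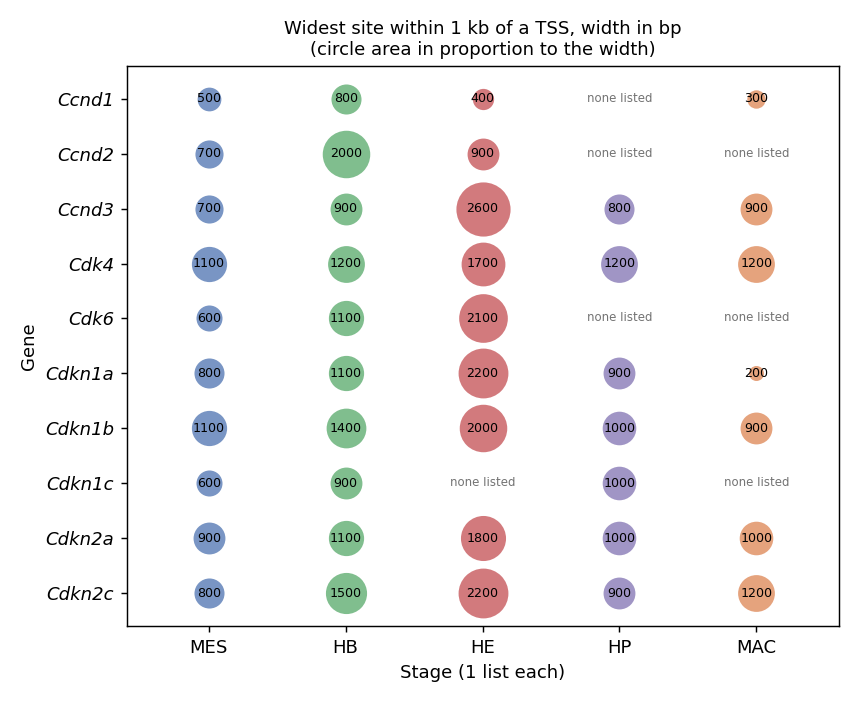
Width in bp of the widest site within 1 kb of any TSS, for each of the 10 genes (rows) at each stage (columns), with 1 list per stage and circle areas in proportion to width. All 10 genes have a site in MES and HB, the gaps lie in HE (Cdkn1c), HP (Ccnd1, Ccnd2 and Cdk6) and MAC (Ccnd2, Cdk6 and Cdkn1c), and the widths run from 200 bp for Cdkn1a in MAC to 2600 bp for Ccnd3 in HE.

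Ccnd1 (chr7:144929931-144939831, minus strand, build mm10) encodes cyclin D1. A site covered its TSS in MES (500 bp wide), HB (800 bp), HE (400 bp) and MAC (300 bp). These sites were narrow for their lists, with 21.5% of the MES sites, 34.5% of the HB sites, 0.3% of the HE sites and 11.4% of the MAC sites narrower still. In HP the nearest site of any gene was 24255 bp from the TSS. The same pattern, a promoter site everywhere but in HP, was found for 1.79% of protein-coding genes. HP thus stood apart at this promoter, and HP was also the stage with the shortest list. When every list was cut to its widest sites at the length of the HP list, the HE and MAC sites at this promoter were lost as well.

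Ccnd2 (chr6:127125162-127152188, minus strand) encodes cyclin D2, the D cyclin known for its role in proliferating lymphoid and myeloid cells. Its promoter was open in MES with 2 sites of 700 bp and 400 bp, in HB with 1 site of 2000 bp, and in HE with 1 site of 900 bp. The HB site was among the widest of its list, of which 99.5% was narrower, and it overlapped both MES sites. In HP and MAC the nearest sites were 2892 bp and 2999 bp from the curated TSS. With lists cut in the same way the HE site was lost too. The pattern of MES, HB and HE was shared with Cdk6 and with 3.96% of protein-coding genes.

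Ccnd3 (chr17:47505051-47599689, plus strand) encodes cyclin D3, the D cyclin best known from lymphocytes and red cell precursors. It has an upstream TSS and a downstream TSS 88416 bp away, and its site at every stage hid a change between them. At the upstream TSS a site was listed in HE (500 bp wide) and in MAC (600 bp), and both covered the TSS. The HE site was narrow for its list, with 1% narrower, and was lost under either cut by width (the widest sites of each list, or those at or above its median). In MES, HB and HP the nearest site to that TSS was 2360 bp, 2323 bp and 2360 bp away. At the downstream TSS a site covered the start in MES (700 bp), HB (800 bp) and HP (500 bp), the HE site of 2600 bp began 357 bp from it, and the nearest MAC site was 1821 bp away. HE was thus the stage with a site within 1 kb of both starts, while MES, HB and HP had the downstream one and MAC the upstream one. The MAC site of 900 bp that lay 1821 bp off was near TSSs of predicted transcripts, where MES, HB, HE and HP also had a site.

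The RefSeq promoter table (GRCm38.p6) held 11 promoters of 7 of the 10 genes. The 200 bases before each of the starts of Ccnd3 are shown because the listed sites moved between them. The upstream stretch is chr17:47504851-47505050 and the downstream stretch chr17:47593267-47593466, both on the plus strand, written 5′ to 3′ with GC boxes (GGGCGG on either strand) and CCAAT boxes (CCAAT on either strand) in capitals.
Ccnd3 upstream start: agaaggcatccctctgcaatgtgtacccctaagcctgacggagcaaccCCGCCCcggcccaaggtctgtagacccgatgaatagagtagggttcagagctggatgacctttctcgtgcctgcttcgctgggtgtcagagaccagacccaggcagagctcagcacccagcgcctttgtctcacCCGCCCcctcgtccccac
Ccnd3 downstream start: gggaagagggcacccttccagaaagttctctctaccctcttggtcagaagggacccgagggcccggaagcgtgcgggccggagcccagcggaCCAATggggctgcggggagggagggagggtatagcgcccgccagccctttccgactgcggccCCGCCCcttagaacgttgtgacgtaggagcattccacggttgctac
The upstream stretch held 2 GC boxes, and the downstream stretch 1 GC box and 1 CCAAT box.

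Cdk4 (chr10:127063535-127067288, plus strand), whose kinase is shared by all D cyclins, had 1 site at each stage and none elsewhere in its territory, the stretch within which a site could be assigned to it, of 5.04 kb. The site covered the TSS at all 5 stages. It was 1100 bp wide (MES), 1200 bp (HB), 1700 bp (HE), 1200 bp (HP) and 1200 bp (MAC). Measured against its own list it was wide throughout, with 69.1% (HB) to 94.2% (MAC) of sites narrower. The 200 bases before its TSS (chr10:127063335-127063534, plus strand) show a promoter listed at every stage, with 1 GC box in capitals.
Cdk4: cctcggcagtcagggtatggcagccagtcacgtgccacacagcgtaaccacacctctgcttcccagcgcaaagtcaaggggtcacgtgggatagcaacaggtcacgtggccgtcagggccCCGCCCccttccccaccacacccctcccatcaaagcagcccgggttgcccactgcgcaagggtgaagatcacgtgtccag

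Cdk6 (chr5:3341004-3531008, plus strand) encodes the other kinase of the D cyclins and is known as the one that predominates in blood progenitors. Its promoter sites were 600 bp wide in MES, 1100 bp in HB and 2100 bp in HE, and 97.5% of the HE sites were narrower than the last. They did not lie at the same distance from the curated TSS. The MES site ended 986 bp from it and the HB site 694 bp from it, while the HE site covered it, so a reach of 100 bp in place of 1 kb left the HE site alone. The merged region of the MES and HB sites lay 106 bp from a TSS of the non-coding gene Gm36470, and that of the HE site 134 bp from another. The deposited HB site covered the first of these TSSs, and the deposited HE site covered each of them. Neither region can thus be given to Cdk6 alone. In HP no site was assigned to Cdk6, and the nearest of the list was 150300 bp from its TSS. In MAC the nearest site was 34148 bp away. A site inside Cdk6 but nearer to the TSS of another protein-coding gene was not assigned to it. With the nearest gene taken by gene body, the 10 genes had 23 sites in HP against 21, and 41 in MAC against 36. Which genes gained sites is not known from these counts. The 200 bases before the TSS (chr5:3343693-3343892, plus strand) are shown since the HE site reached them, with the TATA box (TATAAA on either strand) in capitals.
Cdk6: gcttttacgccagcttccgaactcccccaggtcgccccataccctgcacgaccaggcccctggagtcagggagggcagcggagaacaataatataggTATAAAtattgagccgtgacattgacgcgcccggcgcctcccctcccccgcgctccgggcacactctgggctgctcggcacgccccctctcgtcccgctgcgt
Among the 11 promoters of 300 bases in the table that of Cdk6 was the one with a TATA box, which 13.6% of all 32851 promoters held.

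Of the CIP/KIP inhibitors, Cdkn1a (chr17:29090979-29100722, plus strand) encodes p21, a target of the tumour suppressor p53. It has an upstream TSS and a downstream TSS 2790 bp away. A site covered the downstream TSS at all 5 stages, with widths of 800 bp (MES), 1100 bp (HB), 2200 bp (HE), 900 bp (HP) and 200 bp (MAC). The MAC site was narrow, with 1.2% of its list narrower, and was lost when lists were cut by width, and the HE site was wide, with 98.5% narrower. The upstream TSS was covered in HE, by a site of 500 bp that no site of another stage overlapped. It was narrow too, with 1% of the HE list narrower, and was lost under either cut by width. In the other stages the nearest site was 2350 bp (HB) to 2609 bp (MAC) from it.

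Both starts of Cdkn1a are shown because HE added a site at the upstream one. The stretches are chr17:29090779-29090978 and chr17:29093569-29093768 on the plus strand of GRCm38.p6. Capitals mark a 20-base match to the p53 consensus with 1 mismatched base in the former and GC boxes in the latter.
Cdkn1a upstream start: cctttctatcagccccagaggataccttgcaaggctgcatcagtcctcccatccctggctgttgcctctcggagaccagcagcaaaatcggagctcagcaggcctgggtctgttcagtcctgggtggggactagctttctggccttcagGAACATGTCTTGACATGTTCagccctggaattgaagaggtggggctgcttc
Cdkn1a downstream start: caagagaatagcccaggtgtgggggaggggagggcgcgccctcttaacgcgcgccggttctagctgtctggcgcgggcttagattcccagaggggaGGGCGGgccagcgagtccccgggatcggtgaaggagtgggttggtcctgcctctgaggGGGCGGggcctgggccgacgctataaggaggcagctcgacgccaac
The p53-like match lay at chr17:29090928-29090947, its first base 51 bp before the upstream TSS, and inside the HE site. With at most 1 mismatch the consensus was found in 1 of the 11 promoters and in 0.0883% of all promoters of the same length. The exact consensus was in 0 of the 71 regions of the 10 genes and in 0.0276% of all regions. With 1 mismatch allowed, a setting chosen after the sequences had been seen, 2 of the 71 regions (2.82%) and 0.189% of all regions held it, and both regions belonged to Cdkn1a. The other was the region 12.1 kb upstream, open in HE and MAC, which overlaps the TSS of the non-coding gene Trp53cor1, also known as lincRNA-p21. Its match, on the plus strand at chr17:29079039-29079058, lay inside the HE site and the MAC site.
Cdkn1a 12.1 kb upstream: AGGCAAGCCCGGGCAAGGCC
A match to letters does not show that p53 was bound.

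Cdkn1b (chr6:134920401-134925525, plus strand) encodes p27, which restrains the cell cycle in many resting cells. Its TSS was covered by a site at every stage, which was 1100 bp wide (MES), 1400 bp (HB), 2000 bp (HE), 1000 bp (HP) and 900 bp (MAC). The share of the list that was narrower ran from 57.5% in HP to 96% in HE. The 200 bases before the TSS (chr6:134920201-134920400, plus strand) held 1 GC box and 2 CCAAT boxes, in capitals.
Cdkn1b: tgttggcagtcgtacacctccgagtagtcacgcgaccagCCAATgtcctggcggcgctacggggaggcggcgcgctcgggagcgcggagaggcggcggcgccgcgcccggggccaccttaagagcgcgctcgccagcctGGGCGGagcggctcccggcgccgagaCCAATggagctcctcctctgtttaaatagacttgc

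Cdkn1c (chr7:143458339-143461059, minus strand) encodes p57 and is an imprinted gene expressed from the maternal copy. Its TSS was covered in MES (600 bp), HB (900 bp) and HP (1000 bp). In HE the nearest site was 40677 bp away and in MAC 46541 bp. It was thus listed before and after HE but not in HE, a combination (MES, HB and HP) found for 0.295% of protein-coding genes, or 62 of 21000. The HE list held no site assigned to Cdkn1c, and what lies behind this absence was not tested.

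Cdkn2a (chr4:89274473-89294619, minus strand) is the INK4 gene with 2 products. Transcripts from its upstream TSS encode p19Arf, which protects p53, and those from the TSS 12427 bp downstream encode p16Ink4a, the inhibitor of CDK4 and CDK6. The Arf TSS was covered at all 5 stages by sites of 900 bp (MES), 1100 bp (HB), 1800 bp (HE), 1000 bp (HP) and 1000 bp (MAC). The Ink4a TSS was covered in MES (700 bp), HB (1100 bp), HE (1500 bp) and MAC (600 bp). In HP the nearest site to the Ink4a TSS was 12123 bp away, which is the site at the Arf start. The starts of 1 gene thus differed in HP and in no other stage. The merged region at the Arf start also covered a TSS of the non-coding gene Gm12610, so the site cannot be given to Cdkn2a alone.

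The 200 bases before each start of Cdkn2a are shown for this difference (chr4:89294620-89294819 for Arf and chr4:89282193-89282392 for Ink4a, both minus strand). GC boxes and the E2F motif (TTTGGCGC, TTTCCCGC or TTTCGCGC on either strand) are in capitals.
Cdkn2a Arf: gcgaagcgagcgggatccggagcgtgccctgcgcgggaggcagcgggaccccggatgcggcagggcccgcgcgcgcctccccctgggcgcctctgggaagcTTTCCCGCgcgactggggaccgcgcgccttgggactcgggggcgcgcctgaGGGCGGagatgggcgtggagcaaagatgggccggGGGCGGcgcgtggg
Cdkn2a Ink4a: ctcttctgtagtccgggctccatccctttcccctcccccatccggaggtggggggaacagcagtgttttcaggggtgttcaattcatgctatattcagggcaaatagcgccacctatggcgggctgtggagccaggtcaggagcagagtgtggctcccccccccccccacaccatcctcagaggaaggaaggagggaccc
The Arf stretch held 2 GC boxes and 1 E2F match, and the Ink4a stretch held no match to the GC box, the CCAAT box, the TATA box or E2F. Among the 11 promoters of 300 bases the Arf promoter alone had an E2F match, against 1.84% of all promoters. A GC box was present in 8 of the 11 and in 35.7% of all promoters, and a CCAAT box in 4 of the 11 and in 37.4%.

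Cdkn2c (chr4:109660876-109666756, minus strand) encodes p18Ink4c. Its upstream TSS was covered at all 5 stages, by sites 800 bp wide (MES), 1500 bp (HB), 2200 bp (HE), 900 bp (HP) and 1200 bp (MAC). A second curated TSS lies 1384 bp downstream, and the HE site reached it while the others ended 544 bp (HB) to 1146 bp (MES) before it. The 200 bases before the upstream TSS (chr4:109666757-109666956, minus strand) carried 3 GC boxes, in capitals.
Cdkn2c: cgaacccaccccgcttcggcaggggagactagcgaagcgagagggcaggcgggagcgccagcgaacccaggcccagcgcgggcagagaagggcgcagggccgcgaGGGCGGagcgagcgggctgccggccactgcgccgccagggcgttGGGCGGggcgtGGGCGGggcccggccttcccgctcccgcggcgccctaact

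None of the 54 promoter sites of the 10 genes lay within 1 kb of a TSS of another protein-coding gene. Their median width, set beside that of all promoter sites of the list, was 700 bp against 1000 bp (MES), 1100 against 1200 bp (HB), 1750 against 1600 bp (HE), 950 against 1100 bp (HP) and 900 against 800 bp (MAC).

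A list of 25 further genes of the cell cycle was read in the same way. It holds the E and A type cyclins, Cdk1 and Cdk2, the Rb family, the E2F genes, other INK4 genes and regulators such as Trp53, Mdm2 and Myc. All 25 had a promoter site in MES, HB and HE, 24 in HP and 22 in MAC. At all 5 stages 21 of them had one, including Ccne1, Cdk2, Rb1, E2f1, E2f4, Cdkn2b, Cdkn2d, Trp53 and Mdm2. Of the 4 others, E2f2, Myc and Mycn lacked a site in MAC, and E2f6 lacked one in HP. No gene of this list lacked a site in both HP and MAC, as Ccnd2 and Cdk6 did, or in HE, as Cdkn1c did.

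Beyond the promoters the genes differed widely in the number of regions. For this, each site was set to 500 bp around its middle, windows that overlapped by at least 25% of their length were merged, and a merged region was called open in each stage that gave it a window. Ccnd3 had 15 regions, Ccnd2 12 and Ccnd1 11, Cdk6 and Cdkn1a 8 each, Cdkn1b 5, Cdkn2a and Cdkn2c 4 each, Cdkn1c 3 and Cdk4 1. The median over the 10 genes was 6.5, against 2 over all protein-coding genes, whose middle 50% had 1 to 4. Of all coding genes, 98.2% had fewer regions than Ccnd3, 96.3% fewer than Ccnd2 and 95.3% fewer than Ccnd1, and 20.6% fewer than Cdk4. The territory of a gene differs too. It was 112 kb for Ccnd1, 121 kb for Ccnd2, 98.8 kb for Ccnd3 and 200 kb for Cdk6, but 42.2 kb for Cdkn1a and 41.9 kb for Cdkn1b. Per 100 kb of territory the order was another, with 19.8 regions for Cdk4, 19 for Cdkn1a, 15.2 for Ccnd3 and 11.9 for Cdkn1b, then 9.94 for Ccnd2, 9.79 for Ccnd1, 5.45 for Cdkn2c, 4.3 for Cdkn2a, 4 for Cdk6 and 2.82 for Cdkn1c. The value of Cdk4 rests on 1 region in 5.04 kb.

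**Figure D2:**
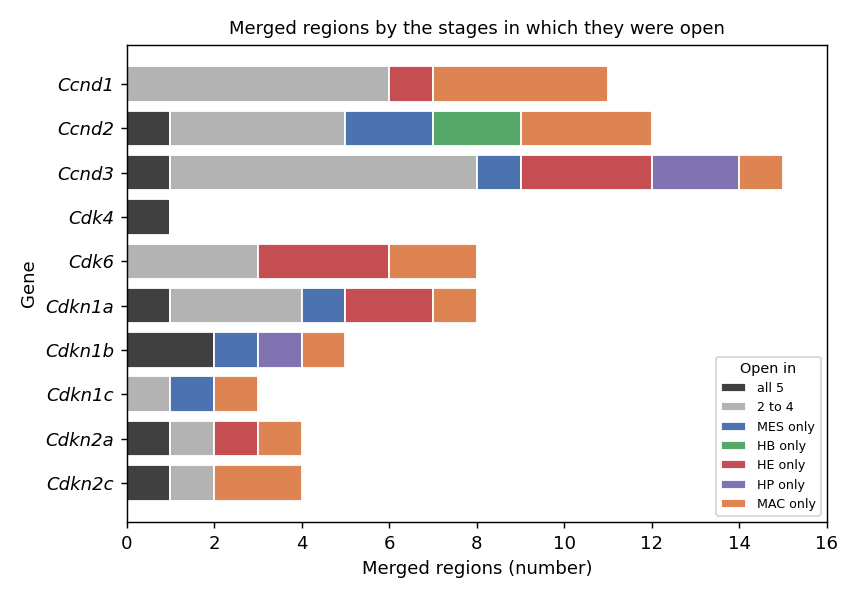
Number of merged regions (horizontal axis) of each of the 10 genes, with bars split by the stages in which a region was open. The D cyclins have 11 to 15 regions each and Cdk4 has 1, and single-stage regions are the majority for Ccnd2, Cdk6, Cdkn1b and Cdkn1c.

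Of the 71 regions, 8 (11.3%) were open at all 5 stages against 13.2% of all merged regions, and 37 (52.1%) at a single stage against 60.2%. The commonest patterns were MAC alone with 16 regions (22.5% against 31% of all regions), HE alone with 10 (14.1% against 17.1%), and all 5 stages with 8. Regions open in every stage but HP numbered 4, or 5.63% against 1.04% of all regions, and those open in MES, HB and HP numbered 3, or 4.23% against 0.671%. An HE interval overlapped 1 of those 3, in Ccnd3, which leaves 2 without an HE site. MES regions made up 46.5% of the 71 and 31.9% of all regions, HB 42.3% and 35.9%, HE 45.1% and 48.4%, HP 29.6% and 25.8%, and MAC 50.7% and 54.4%.

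From each stage to the next the set of open regions turned over to a different degree. Of the 33 regions open in MES, 27 (81.8%) were open in HB, close to the 81.5% of all regions, and of the 30 open in HB 3 (10%) had not been open in MES, against 27.7%. Of the 30 in HB, 16 (53.3%) were open in HE against 63.7%, and of the 32 open in HE 16 (50%) had not been open in HB, against 52.7%. Of the 32 in HE, 12 (37.5%) were open in HP against 42.9%, and of the 21 open in HP 9 (42.9%) had not been open in HE, against 19.5%. Of the 21 in HP, 12 (57.1%) were open in MAC against 66.2%, and of the 36 open in MAC 24 (66.7%) had not been open in HP, against 68.7%.

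The use of windows bears on these counts, since the middle of a wide HE site can lie away from that of its neighbours. Of the 14 HB regions counted as closed in HE, 5 came from intervals that an HE interval overlapped. Counted by any overlap of the deposited intervals, a measure chosen after seeing the data, 21 of the 30 HB sites (70%) were overlapped in HE, against 69.4% of all HB sites, so the lower share by windows was not seen. By the same measure 28 of 33 MES sites (84.8% against 82.9%) were overlapped in HB, 15 of 32 HE sites (46.9% against 45.5%) in HP and 12 of 21 HP sites (57.1% against 67.3%) in MAC. Sites that no interval of the stage before overlapped were 3 of 30 in HB (10% against 26.8%), 12 of 32 in HE (37.5% against 48.7%), 5 of 21 in HP (23.8% against 14%) and 24 of 36 in MAC (66.7% against 67.9%). Likewise 4 of the 10 regions of HE alone, and 6 of the 37 single-stage regions, came from an interval that overlapped an interval of another stage. Those of HE alone lay at the promoter of Cdk6, at the downstream start of Cdkn1a and at 2 regions within Ccnd3.

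**Figure D3:**
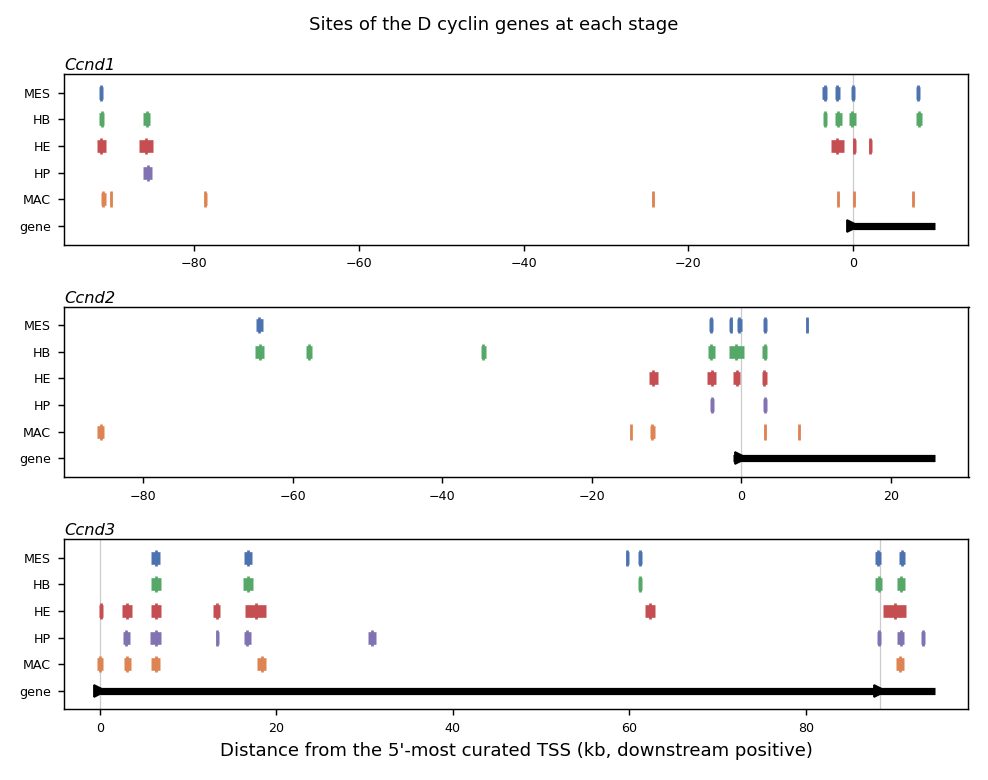
Sites of Ccnd1, Ccnd2 and Ccnd3 at each stage (rows), drawn to scale by distance from the 5′-most curated TSS in kb, with ticks at site middles. The black bar is the gene and arrowheads mark curated TSSs. In HP, Ccnd1 keeps the site 85.6 kb upstream and Ccnd3 has sites along its gene.

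Ccnd1 kept a single site in HP, and it lay far upstream. It was 1100 bp wide with its middle 85.6 kb upstream of the TSS, and HB (800 bp) and HE (1700 bp) had a site there too, whereas MES and MAC did not. This was the one region of Ccnd1 open in HP, when 5 were open in MES, 6 in HB, 5 in HE and 7 in MAC. The regions 1.89 kb and 91.1 kb upstream shared the pattern of the promoter, open in all stages but HP. Those at 3.49 kb upstream and 7.89 kb downstream were open in MES and HB. MAC alone opened 4 regions, at 7.22 kb downstream and at 24.3, 78.6 and 90 kb upstream, with sites of 200 to 400 bp.

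Ccnd2 kept 2 sites in HP, 3.19 kb downstream in its intron and 3.91 kb upstream. The intronic region was open at all 5 stages, with widths of 600 bp (MES, HB and HP), 700 bp (HE) and 300 bp (MAC), and was thus listed in HP and MAC where the promoter was not. The region 4 kb upstream was listed at every stage but MAC. A region 11.8 kb upstream was open in HE and MAC, and one 64.4 kb upstream in MES and HB. HB alone had regions 34.5 and 57.8 kb upstream. MAC alone had 3, of which the widest site, 900 bp, lay 85.7 kb upstream. Between 1.45 and 57.8 kb upstream these regions fell in the non-coding gene 9330179D12Rik.

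Ccnd3 was the gene with most HP regions, 8 against 5 to 7 in the other stages. In its intron a region 6.36 kb downstream of the upstream TSS was open at all 5 stages, with sites of 1000 bp in MES, 1200 bp in HB, HE and HP, and 1000 bp in MAC. HE, HP and MAC shared the region at 3.09 kb, and HE and HP that at 13.3 kb. HP alone had regions at 30.9 kb and 93.3 kb. MES and HB shared 1 at 61.2 kb. The D cyclins thus ran apart in HP, with 1 region of Ccnd1, 2 of Ccnd2 and 8 of Ccnd3 open.

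The central 200 bases of 4 of these regions follow (GRCm38.p6, plus strand), chosen for their stage patterns. They are the Ccnd1 region open in HB, HE and HP (chr7:145025452-145025651), the Ccnd2 region open at all 5 stages (chr6:127147808-127148007), the widest Ccnd2 region of MAC alone (chr6:127236600-127236799) and the widest Ccnd3 region of HP alone (chr17:47535842-47536041). Capitals mark matches on either strand to AGATAA for GATA factors, TGTGGT for RUNX, GAGGAAG for PU.1, TTGCNNAA for CEBP, TGA and TCA with any base between for AP1, CATTCC for TEAD and CCGGAAG for ETS factors, and to the consensus named after the factor CTCF.
Ccnd1 85.7 kb upstream: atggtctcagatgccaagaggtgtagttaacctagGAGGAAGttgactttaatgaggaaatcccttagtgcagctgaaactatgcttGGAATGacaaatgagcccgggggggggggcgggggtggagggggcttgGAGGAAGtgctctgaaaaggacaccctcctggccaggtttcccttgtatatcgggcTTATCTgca
Ccnd2 3.1 kb downstream: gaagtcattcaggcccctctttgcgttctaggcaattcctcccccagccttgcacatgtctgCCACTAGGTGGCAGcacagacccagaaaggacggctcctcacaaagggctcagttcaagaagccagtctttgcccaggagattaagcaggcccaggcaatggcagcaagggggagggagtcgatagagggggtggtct
Ccnd2 85.7 kb upstream: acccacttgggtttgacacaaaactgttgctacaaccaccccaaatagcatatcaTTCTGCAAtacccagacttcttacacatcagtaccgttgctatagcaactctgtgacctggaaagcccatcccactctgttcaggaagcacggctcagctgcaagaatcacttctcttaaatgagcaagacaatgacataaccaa
Ccnd3 30.9 kb downstream: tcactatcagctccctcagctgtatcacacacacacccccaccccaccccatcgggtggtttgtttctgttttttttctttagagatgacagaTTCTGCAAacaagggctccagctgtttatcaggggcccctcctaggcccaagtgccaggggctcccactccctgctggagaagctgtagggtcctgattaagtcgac
The Ccnd1 sequence held 1 GATA, 2 PU.1 and 1 TEAD match. The Ccnd2 region of all stages held 1 CTCF match, and the Ccnd2 region of MAC and the Ccnd3 region of HP held 1 CEBP match each.

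**Figure D4:**
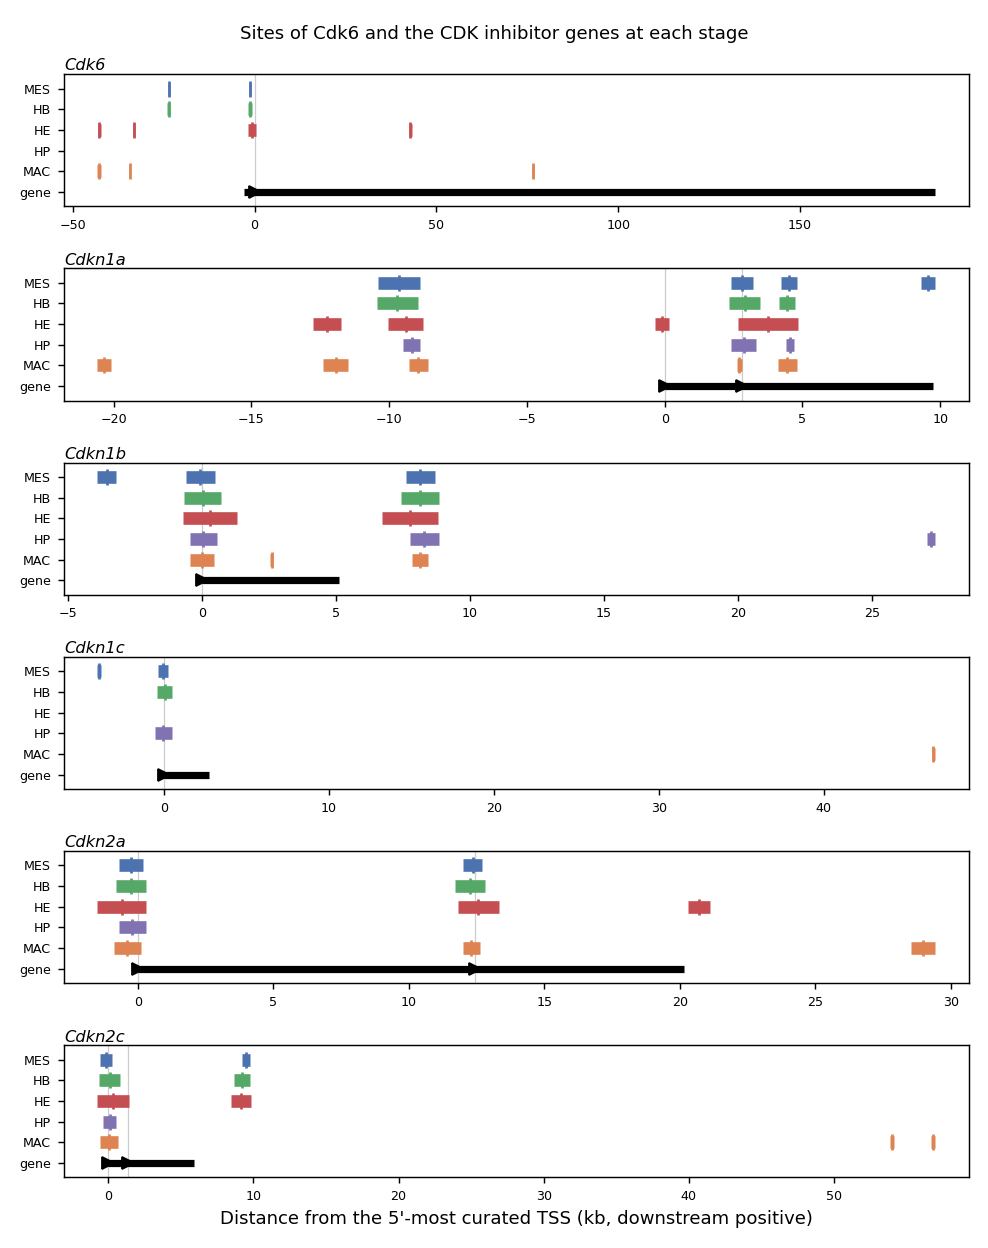
Sites of Cdk6, Cdkn1a, Cdkn1b, Cdkn1c, Cdkn2a and Cdkn2c at each stage (rows), drawn to scale by distance from the 5′-most curated TSS in kb, with ticks at site middles. The black bar is the gene and arrowheads mark curated TSSs. No HP site is assigned to Cdk6 and no HE site to Cdkn1c, and Cdkn2a lacks the HP site at its downstream start.

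The regions of Cdk6 outside its promoter differed between stages, and none was open in more than 2. MES and HB shared 1 region 23.6 kb upstream besides the promoter. HE and MAC shared the region 42.7 kb upstream, with sites of 1000 bp in both. HE alone had regions 33.2 kb upstream and 42.8 kb downstream, and MAC alone had regions 34.3 kb upstream and 76.5 kb downstream, inside the gene. Its upstream regions beyond the promoter lay in introns of the non-coding gene Gm36470. The central 200 bases of the region of HE and MAC (chr5:3301086-3301285, plus strand) are shown as the place where MAC had a site while the promoter had none, and they held no match to the motifs just named.
Cdk6 42.7 kb upstream: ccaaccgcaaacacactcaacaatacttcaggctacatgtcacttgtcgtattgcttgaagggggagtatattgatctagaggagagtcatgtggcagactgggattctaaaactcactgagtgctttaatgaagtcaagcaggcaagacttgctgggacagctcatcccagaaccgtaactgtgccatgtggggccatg

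Among the inhibitors, Cdkn1a had a region 9.32 kb upstream that was open at all 5 stages. Its sites were 1500 bp wide (MES and HB), 1300 bp (HE), 600 bp (HP) and 700 bp (MAC). A region 4.51 kb downstream was open in MES, HB, HP and MAC, and the wide HE promoter site overlapped it. MAC alone had a region 20.3 kb upstream and MES alone one 9.56 kb downstream, in an untranslated exon.

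Cdkn1b had a region of the same kind 8.03 kb downstream, open at all 5 stages with sites of 1100 bp (MES), 1400 bp (HB), 2100 bp (HE), 1100 bp (HP) and 600 bp (MAC). The merged region ended 136 bp from the TSS of Lockd, a non-coding gene downstream of Cdkn1b. The deposited sites of MES, HB, HE and HP covered that TSS, and the MAC site did not. The region cannot be told apart from a promoter site of Lockd. HP alone had a region 27.2 kb downstream, in an intron of Lockd. The central 200 bases of the shared region (chr6:134928333-134928532, plus strand) held none of the motifs just named, but the region was CpG-rich, at 58.4% GC and an observed CpG count 1.03 times the expected one over 500 bp.
Cdkn1b 8 kb downstream: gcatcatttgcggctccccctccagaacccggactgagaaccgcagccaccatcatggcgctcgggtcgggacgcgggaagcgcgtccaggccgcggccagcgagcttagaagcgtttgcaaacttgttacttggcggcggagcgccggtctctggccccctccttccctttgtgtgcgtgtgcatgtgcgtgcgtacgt

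The INK4 genes and Cdkn1c had few regions beyond their promoters. Cdkn2c had one 9.32 kb downstream open in MES, HB and HE, with sites of 500, 1100 and 1400 bp, which covered a TSS of the non-coding gene 9630013D21Rik. Cdkn2a had a region of HE alone 20.7 kb downstream and one of MAC alone 29 kb downstream. Cdkn1c had a region of MES alone 3.93 kb upstream and one of MAC alone 46.6 kb downstream, inside an intron of its neighbour Kcnq1, and both came from sites of 200 bp. Cdkn2c had 2 further regions of MAC alone, 54 and 56.8 kb downstream, with sites of 300 bp.

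Regions of MAC alone, the commonest pattern among all merged regions as well, made up 22.5% of the regions here against 31% of all. They had a median site width of 300 bp, whereas the 10 regions of HE alone had one of 1000 bp. All MAC sites of the 10 genes had a median of 600 bp. Outside promoters, 32 of 53 regions (60.4%) were open at a single stage, against 71.3% of all merged regions outside promoters. At all 5 stages 4 (7.55%) were open, against 2.85%, and they lay at Ccnd2, Ccnd3, Cdkn1a and Cdkn1b. Promoters here are those of protein-coding genes, and the Cdkn1b region is the one at the TSS of Lockd.

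CpG-rich regions (50% GC or more, and 0.6 or more of the expected CpG number, in the central 500 bp) made up 12 of the 18 promoter regions (66.7%), against 64.8% of all merged regions with a site within 1 kb of a TSS of a protein-coding gene. Outside promoters they were 6 of 53 (11.3%) against 2.92%. They lay 1.9 and 3.5 kb upstream of Ccnd1, 4 kb upstream of Ccnd2 and 3.9 kb upstream of Cdkn1c. The others lay 4.5 kb downstream of the upstream TSS of Cdkn1a, where the HE promoter site overlapped, and at the TSS of Lockd. Of the 8 regions open at all stages 5 were CpG-rich (62.5%) against 78.4%, and of the 37 open at a single stage 3 were (8.11%) against 4.47%. Over all merged regions the share was 18.2%. In the central 500 bp a GC box was present in 30 of the 71 regions (42.3%), against 27.5% of all regions. Outside promoters it was present in 14 of 53 (26.4%), and the share over all regions outside promoters was not computed. An E2F match was in 4 regions (5.63%), against 1.83%, and in the central 200 bp in 1 (1.41%), against 0.808%. A RUNX match was in 25 regions (35.2% against 33.2%), PU.1 in 18 (25.4% against 27%), CEBP in 15 (21.1% against 20.4%), GATA in 12 (16.9% against 23%), AP1 in 12 (16.9% against 22.7%) and TEAD in 16 (22.5% against 26.7%). The ETS letters were in 1 region (1.41% against 7.02%) and CTCF in 2 (2.82% against 1.47%). In the central 200 bp RUNX was in 11 regions (15.5% against 16.1%), PU.1 in 13 (18.3% against 14.1%), CEBP in 8 (11.3% against 9.68%), GATA in 9 (12.7% against 10.5%), AP1 in 4 (5.63% against 13%) and TEAD in 5 (7.04% against 12.2%). The shares of GATA and PU.1 thus lay below those of all regions in the wider window and above them in the narrower one. The PU.1 and ETS letters overlap in their last bases, GGAAG.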

How the data were processed

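DNaseI-seq was carried out on 5 sorted populations, with 1 list of sites for each. The authors trimmed reads with CutAdapt, aligned them to mm10 with Bowtie, dropped duplicates (Picard) and used DFilter with 100 bp bins to call sites; their processing notes also name HOMER, and versions are not given in the sources used here. The deposited values are positions in bp, with no score, height or read count, and every width was a multiple of 100 bp, so calls of a site are all or none and depend on the authors' threshold. TSSs, annotation and sequence came from RefSeq and GRCm38.p6, whose chromosomes are those of mm10. Sites were assigned with Python 3.11.15 and numpy 2.4.6, and figures drawn with matplotlib 3.10.9. Assignment reached 1 kb to any TSS and 100 kb to the nearest curated protein-coding TSS. Regions were 500 bp windows around site middles, merged at 25% overlap, since summits were not used here. The 4 merged regions on the mitochondrial chromosome were left out of motif and CpG counts. The scripts were tested on simulated sites. All 10 genes are named, with the regions open at all 5 stages and some of the single-stage regions, though not all of the widest. The genes, the list of 25 genes and the motifs were chosen with earlier results of these data known, and the p53 search with 1 mismatch after the sequences were seen. No test was run, because each stage is n = 1. Alternatives were a promoter reach of 100 bp or 2 kb, curated TSSs alone, and a far reach of 50 kb. Others were the nearest gene taken by gene body, other merging, and lists cut by width.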

Additional observations from a re-analysis of the deposited data

How the results depend on the processing

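Depth behind the lists is unknown from the values, so a missing site in HP, the shortest list, cannot be told apart from a site below the threshold. No paired analysis was possible because each stage has 1 list, and no replicate could be left out. Over 16 counts and their 75 alternative values, 58 stayed within 1.5 times and 17 moved. Merging windows at 250 bp gave 5 regions open at all 5 stages, and merging the deposited intervals gave 6 regions of HE alone. With the nearest gene taken by gene body there were 79 regions in place of 71. When sites narrower than their list's median were dropped, 5 genes had a promoter site in MES, the assigned sites numbered 10 (MES), 18 (HB), 17 (HE), 10 (HP) and 20 (MAC), and there were 37 regions, of which 20 were open at a single stage and 5 in HE alone. With each list cut to its widest sites at the length of the HP list, sites numbered 17 in HE and 17 in MAC, with 46 regions, 22 of a single stage, 7 of MAC alone and 5 of HE alone. Gene patterns held under a reach of 2 kb and with curated TSSs alone. A reach of 100 bp left Cdk6 with HE alone. The widest lists left Ccnd1 and Ccnd2 with MES and HB and took MAC from Cdkn1a. At the median width Ccnd1 had no promoter site, Ccnd2 kept HB, Ccnd3 kept HB, HE and MAC, Cdk6 kept HB and HE, Cdkn1c kept HB and HP, and Cdkn1a lost MAC. The p53 count moved from 0 to 2 regions with 1 mismatch. In the central 200 bp in place of 500 bp, the counts of regions with RUNX (11), CEBP (8), AP1 (4) and TEAD (5) moved, and those with GATA, PU.1 and ETS stayed within 1.5 times.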
